A study of Homo sapiens with 9 samples.

Results

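Transcripts of the 4q35 region next to the D4Z4 repeat and of genes known to be induced by DUX4 were examined in HEK293 cells, a human embryonic kidney line, after knock-down of SmcHD1. The members were 10 genes chosen by name, 5 near the D4Z4 repeat (FRG1, FRG2, SLC25A4, FAT1 and SORBS2) and 5 DUX4 targets (ZSCAN4, TRIM43, TRIM49, KHDC1L and MBD3L2). Probes were assigned to them through the RefSeq accession that the array gives for each probe. This gave 12 probes for 9 of the 10 genes, out of 42405 probes in all, of which 25422 were named for 19483 genes. No probe was named KHDC1L or DUX4 in this way, and their expression is not analysed here.

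The cells were populations with a stably integrated retroviral hairpin. SmcHD1 was the target of shRNA 3 in the group KD3 and of shRNA 4 in the group KD4, and the hairpin NC5 served as control in the group CTL. All 3 groups share the same vector, selection and culture medium, and differ in the hairpin alone as far as the labels say. Each group was hybridized to 3 one-color Agilent arrays, called biological triplicates in the methods. Whether these came from separate infections is not given in the sources used here, so that the p-values measure the spread between these samples. The same 3 CTL arrays serve both knock-downs.

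The hairpins are shown because they are the difference between the groups, with the longest stretch that pairs with itself in capitals, 17 bases in KD3, 18 in KD4 and 16 in CTL.
KD3: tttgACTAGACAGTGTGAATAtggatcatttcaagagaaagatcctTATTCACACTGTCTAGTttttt
KD4: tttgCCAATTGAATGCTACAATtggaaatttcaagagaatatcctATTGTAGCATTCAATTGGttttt
CTL: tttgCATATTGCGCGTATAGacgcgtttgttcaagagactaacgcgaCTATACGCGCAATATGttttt

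D4Z4 is a tandem repeat at the end of chromosome 4q, and each unit holds a copy of the DUX4 gene, a homeobox factor active in the cleavage-stage embryo and silent in most adult tissues. In facioscapulohumeral muscular dystrophy (FSHD) the repeat is short or has lost its repressive chromatin, and DUX4 is then expressed in muscle. SMCHD1, a chromatin protein of the structural maintenance of chromosomes family, binds the repeat, and its mutation is a cause of the form of FSHD without a short repeat. The genes on the centromeric side of D4Z4 have long been studied as candidates for the disease, and the DUX4 targets serve as its signature.

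SMCHD1 itself was lower in both knock-downs, as the labels say. The 3 SMCHD1 probes differed from CTL by -0.97 to -1.03 on the log2 scale in KD3 and by -1.51 to -1.54 in KD4, with no overlap between groups on any of them. KD4 was lower than KD3 on all 3 probes, by -0.51, -0.56 and -0.54 (limma adjusted p = 0.0139, 0.0191 and 0.0892). The 7 markers fixed for the line were each well above background on all 9 arrays. Among them, NEFL, NEFM, ENO2 and 1 of 2 PAX2 probes were lower in both knock-downs. That PAX2 probe differed by -2.41 in KD3 and -2.65 in KD4, more than SMCHD1 did, and NEFM by -1.21 and -1.24. At an adjusted p under 0.05 and at least 1.8-fold, 3 of the 7 were lower in KD3 and 2 in KD4, beside 2.4% and 3.49% of all tested genes. Both KRT18 probes were higher in KD4 (limma adjusted p = 0.0181 and 0.0174), and VIM and KRT8 did not pass. None of 4 germ line markers was detected on all arrays of a group, and the most frequent, SYCP3, was well above background on 2 of 9 arrays. Of 7 skeletal muscle markers 5 were detected on all 9 arrays, and the summed log2 signal of the list overlapped between CTL (10.21 to 10.47) and KD3 (10.30 to 10.37) and between CTL and KD4 (10.42 to 10.57). The leukocyte and endothelial markers CD3E, CDH5 and 2 of 4 PTPRC probes were also well above background on all 9 arrays, while PECAM1 was on none.

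Detection was settled before the groups were compared, from the scanner software's own test of each spot against the background. Of the 9 member genes with a probe, 7 were detected on every array of at least 1 group, and the same 7 had a probe detected on all 9 arrays. These were all 5 genes near D4Z4 and the tripartite motif genes TRIM43 and TRIM49. FRG1, FRG2, SLC25A4, FAT1, TRIM49 and both TRIM43 probes were well above background on 9 of 9 arrays. Of the 3 SORBS2 probes, 2 were detected on 9 arrays and the remaining one on 6, namely all 3 arrays in KD3, 1 in KD4 and 2 in CTL.

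ZSCAN4 and MBD3L2 were detected on 0 of 9 arrays. ZSCAN4 encodes a zinc finger protein of the cleavage-stage embryo and MBD3L2 a relative of the methyl-binding protein MBD3, and both are among the genes most used to read DUX4 activity. The ZSCAN4 signal was 2.31, 1.59 and 1.66 in KD3, 2.58, 1.43 and 1.19 in KD4, and 1.45, 1.18 and 2.35 in CTL on the log2 scale. The MBD3L2 signal lay between 1.13 and 1.24 on all 9 arrays. Both were not well above background in any group, so that no fold is given. The plot of member signals by array sets these probes apart from the rest.

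**Figure D1:**
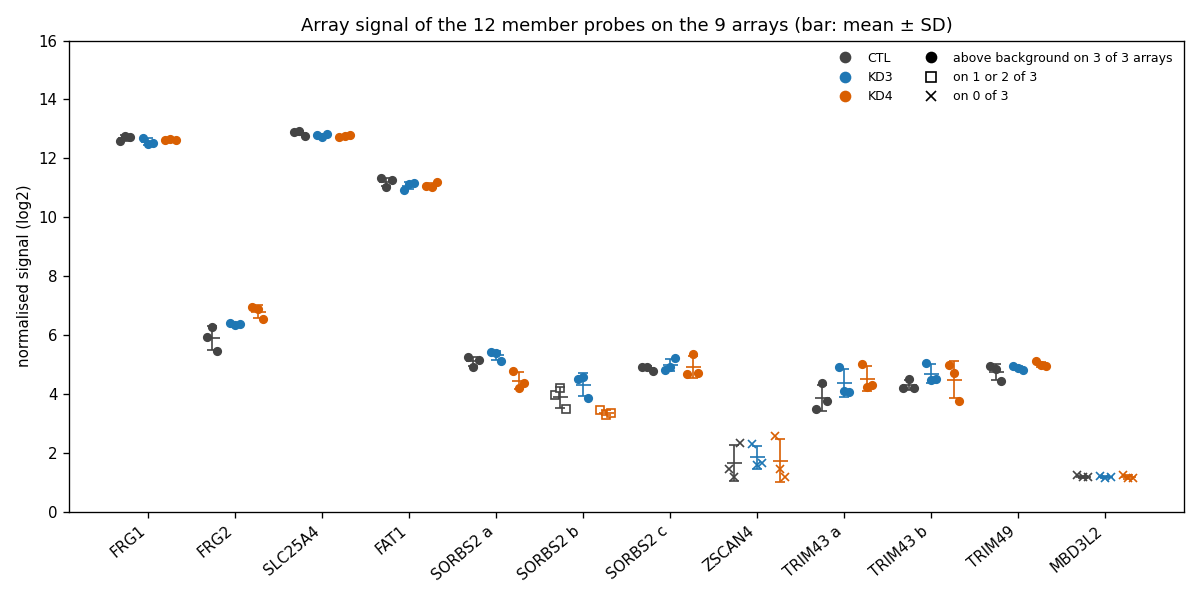
Normalised log2 signal (vertical axis) of each of the 12 member probes (horizontal axis) on the 9 arrays, by group, with the mean ± SD of 3 arrays. Letters a to c separate probes of 1 gene in the order used in the text. Filled circles are groups detected on 3 of 3 arrays, open squares on 1 or 2, crosses on 0. ZSCAN4 and MBD3L2 are crosses in all groups, and FRG2 rises from CTL to KD4.

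Over the 7 member genes tested (10 probes), no gene passed an adjusted p of 0.05 in KD3, and 1 of the 7 had an unadjusted p under 0.05 (limma). Among all 26701 tested genes, 10.5% passed as higher and 11.4% as lower in KD3, and 1.24% and 2.40% also reached the 1.8-fold difference set in the study's methods. No member was called in KD3 by the methods' t-test either, with or without adjustment. In KD4, 2 of the 7 passed an adjusted p of 0.05, FRG2 as higher and SORBS2 as lower. Over all tested genes 14.9% passed as higher and 16.1% as lower. FRG2 was called with the fold as well, as 1.55% of all genes were in that direction, and SORBS2 fell short of it, where 3.49% of genes were called as lower. By the methods' t-test once adjusted, FRG2 did not pass in KD4 (adjusted p = 0.151). The median difference of the 7 genes, by the brightest probe of each, was 0.13 in KD3 and -0.05 in KD4 on the log2 scale, beside 0.01 and 0.04 over all tested genes. Between the knock-downs, 1 of the 7, SORBS2, passed both thresholds, beside 2.84% of all genes for the adjusted p alone and 0.502% for both.

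**Figure D2:**
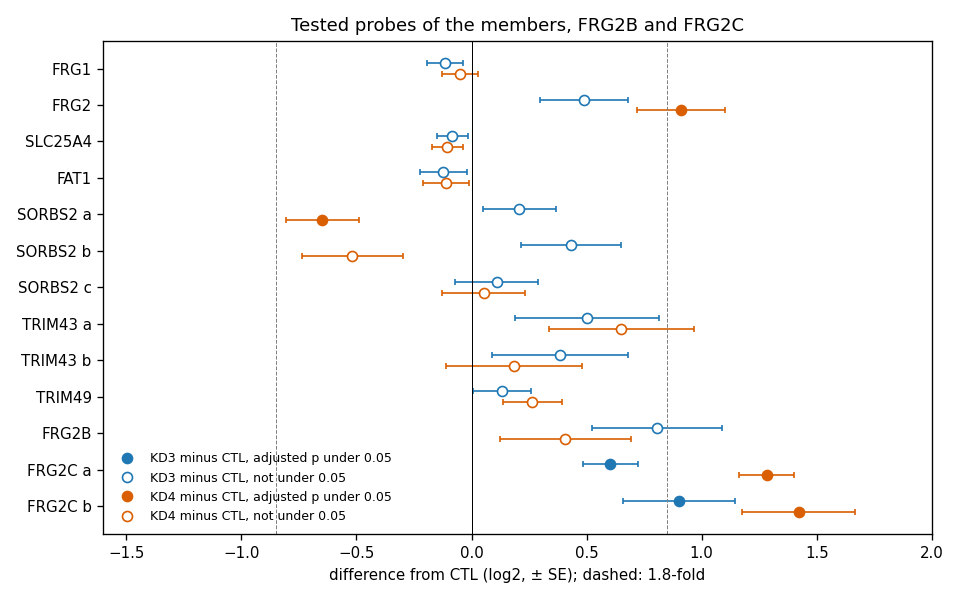
Difference from CTL on the log2 scale (horizontal axis, ± SE from limma) for the 13 tested probes of the members, FRG2B and FRG2C (vertical axis), in KD3 and KD4. Filled points have an adjusted p under 0.05 and dashed lines mark 1.8-fold. FRG2 and both FRG2C probes lie right of zero in both knock-downs, and 2 of 3 SORBS2 probes lie left of zero in KD4 alone. The second SORBS2 probe, the second FRG2C probe and the FRG2B probe were admitted to the test by groups where they are high.

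FRG2 is the protein-coding gene closest to D4Z4 on the centromeric side among those listed, and is a gene of unknown function known to be raised in FSHD muscle cells. Its probe read 5.95, 6.26 and 5.45 in CTL, 6.42, 6.35 and 6.36 in KD3, and 6.94, 6.89 and 6.55 in KD4. Every knock-down array lay above every CTL array, and every KD4 array above every KD3 array. The difference from CTL was 0.91 in KD4 (1.88-fold, SE 0.19, limma adjusted p = 0.00853) and 0.49 in KD3 (1.40-fold, SE 0.19, adjusted p = 0.111). KD4 and KD3 differed by 0.42 (limma adjusted p = 0.274), which did not pass. CTL replicate 3 was the lowest array, and without it the difference in KD4 was 0.69 (limma adjusted p = 0.0141), below 1.8-fold. Without KD4 replicate 1 it was 0.83 (limma adjusted p = 0.0309), also just below. By the methods' t-test once adjusted, the KD4 difference did not pass (adjusted p = 0.151). With normexp background correction the KD4 difference was 0.48 (limma adjusted p = 0.00333), so that the fold was not reached. Normexp here adds an offset of 50 to every signal, which by itself shrinks the folds of probes with low signal, in this and later paragraphs. A fold missed with it cannot be told apart from this shrinkage. Within the slides, which each held all 3 groups, the KD4 difference was 0.87 on slide 1 and 0.99 on slide 2. The slide 2 value is KD4 replicate 1 against CTL replicate 1 alone.

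FRG2 has near-identical copies elsewhere in the genome, FRG2C on chromosome 3 and FRG2B on chromosome 10. Their upstream sequences show how alike they are. Over 249 aligned bases before the annotated starts, FRG2 and FRG2B were identical in all 249 and FRG2C differed from both at 8, or 96.8% identity, with the differing bases in capitals. The sequences are from RefSeq (GRCh38.p14), at chr4:190027258-190027506 on the minus strand for FRG2, chr3:75664078-75664326 on the plus strand for FRG2C and chr10:133626796-133627044 on the minus strand for FRG2B. The FRG2B stretch was shifted by 1 base to align it.
FRG2: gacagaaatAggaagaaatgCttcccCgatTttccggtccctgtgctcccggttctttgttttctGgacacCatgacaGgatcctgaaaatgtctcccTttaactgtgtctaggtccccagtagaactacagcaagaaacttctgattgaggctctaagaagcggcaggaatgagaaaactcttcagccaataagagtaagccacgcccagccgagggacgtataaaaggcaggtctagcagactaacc
FRG2C: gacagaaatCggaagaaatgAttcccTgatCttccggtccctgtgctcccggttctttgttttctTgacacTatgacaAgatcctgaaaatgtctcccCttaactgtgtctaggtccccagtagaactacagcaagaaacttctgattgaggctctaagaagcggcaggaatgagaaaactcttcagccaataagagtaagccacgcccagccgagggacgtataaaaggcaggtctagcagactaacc
FRG2B: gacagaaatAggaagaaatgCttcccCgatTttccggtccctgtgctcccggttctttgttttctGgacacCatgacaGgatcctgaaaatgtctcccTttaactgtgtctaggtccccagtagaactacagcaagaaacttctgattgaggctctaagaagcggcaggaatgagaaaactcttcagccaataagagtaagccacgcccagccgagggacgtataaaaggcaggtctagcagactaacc

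The first FRG2C probe followed the FRG2 probe. It read 5.48, 5.64 and 5.31 in CTL, 6.29, 6.01 and 5.95 in KD3, and 6.83, 6.81 and 6.63 in KD4. The 3 groups did not overlap, in the order CTL, KD3, KD4. The probe was higher by 0.60 in KD3 (SE 0.12, limma adjusted p = 0.00899) and by 1.28 in KD4 (2.43-fold, SE 0.12, adjusted p = 0.000176), and KD4 exceeded KD3 by 0.68 (adjusted p = 0.0274). With normexp the KD4 difference was 0.75 (limma adjusted p = 1.29e-05), below 1.8-fold.

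The second FRG2C probe, which entered the test through the knock-downs as 2 of 3 CTL arrays detected it, read 3.00, 4.01 and 3.85 in CTL, 4.68, 4.49 and 4.38 in KD3, and 5.05, 5.25 and 4.82 in KD4. Its groups did not overlap either. Being admitted by the groups where it is high, it adds no support to the order of the groups. It was higher by 0.90 in KD3 (limma adjusted p = 0.0324) and by 1.42 in KD4 (2.68-fold, adjusted p = 0.00337). The KD3 call rested on single arrays, since without CTL replicate 1 the difference was 0.59 (limma adjusted p = 0.0307), below 1.8-fold, and without KD3 replicate 1, 2 or 3 the adjusted p was 0.0966, 0.077 and 0.0611. That call was also lost with no filter (limma adjusted p = 0.0623), with 2 groups alone (0.0611) and with normexp, where the differences were 0.24 in KD3 (0.0631) and 0.36 in KD4 (0.00639), both below 1.8-fold.

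The FRG2B probe was detected on 6 of 9 arrays, all 3 in KD3, 1 in KD4 and 2 in CTL. It read 3.43, 3.61 and 3.03 in CTL, 3.88, 4.42 and 4.19 in KD3, and 3.75, 4.35 and 3.19 in KD4. KD3, the group through which it entered the test and where it is high, lay above CTL on every array, while KD4 overlapped CTL. A probe so admitted lends no support to a rise in KD3. The differences of 0.81 in KD3 (limma adjusted p = 0.0801) and 0.41 in KD4 (adjusted p = 0.318) did not pass. How much of the signal of each probe comes from each copy was not tested, and neither was which locus was higher.

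**Figure D3:**
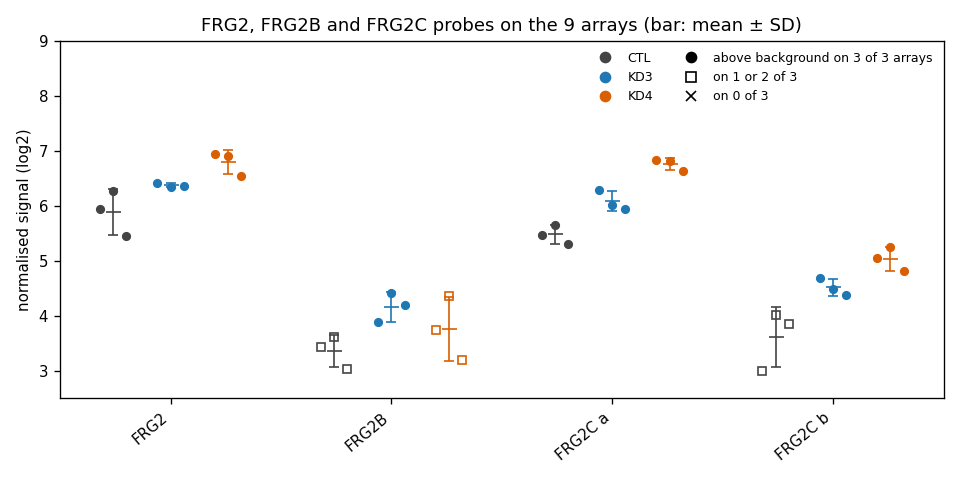
Normalised log2 signal (vertical axis, from 2.5) of the FRG2 probe, the FRG2B probe and both FRG2C probes (horizontal axis) on the 9 arrays by group, with the mean ± SD of 3 arrays. Open squares mark groups not detected on all 3 arrays. FRG2 and the first FRG2C probe order the groups as CTL, KD3, KD4, with 1.88-fold and 2.43-fold more signal in KD4 than in CTL. The second FRG2C probe, with 2.68-fold, was admitted to the test by the groups where it is high. With normexp, whose offset of 50 by itself shrinks the folds of low signals, each of these folds was less than 1.8-fold.

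The tested probes of other genes whose values were most like those of FRG2 over the 9 arrays were those of FKBPL (Pearson r = 0.984), of a transcript without a gene name (r = 0.983) and of RBBP5 (r = 0.979). The 9 points are 3 groups of 3 arrays, and the highest of 32090 probes is high by selection.

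SORBS2 encodes a sorbin and SH3 domain adaptor of actin stress fibres and the Z-disc. Its first probe, measured as the mean of 10 spots, read 5.24, 4.92 and 5.14 in CTL, 5.43, 5.38 and 5.12 in KD3, and 4.79, 4.22 and 4.36 in KD4. All KD4 arrays lay below all others, and KD3 overlapped CTL. KD4 was lower than CTL by a log2 difference of -0.65 (1.57-fold, SE 0.16, limma adjusted p = 0.0166), while KD3 differed by 0.21 (SE 0.16, adjusted p = 0.417). The KD4 value missed the threshold without KD4 replicate 2 or 3 or CTL replicate 1 or 3 (limma adjusted p from 0.0511 to 0.0575). Between the knock-downs the difference was -0.85 (1.81-fold, limma adjusted p = 0.031), a call lost with slide as a block (adjusted p = 0.0546), and without KD3 replicate 1, 2 or 3 or KD4 replicate 2 or 3 (adjusted p from 0.0545 to 0.113). The within-slide values were -1.09 on slide 1, where KD3 replicate 2 was the only KD3 array, and -0.49 on slide 2, where KD4 replicate 1 was the only KD4 array.

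The other 2 SORBS2 probes did not pass in any comparison. The second was detected on all 3 arrays only in KD3, the group through which it entered the test and where it is highest. With 1 KD4 array detecting it, its values add no support to those of the first probe. It read 3.97, 4.20 and 3.49 in CTL, 4.51, 4.57 and 3.87 in KD3, and 3.45, 3.30 and 3.35 in KD4. It differed by -0.52 in KD4 against CTL (limma adjusted p = 0.111) and by -0.95 in KD4 against KD3 (adjusted p = 0.0626). The third differed by 0.11 in KD3 and 0.05 in KD4 (limma adjusted p = 0.728 and 0.854), with overlapping groups. SORBS2 has many transcripts, and RefSeq lists 8 promoters for it. Which of them each probe reads is not given in the files.

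The other genes near D4Z4 were bright and passed no test. FRG1, which encodes an actin-bundling protein of the nucleolus and Cajal bodies, read 12.58, 12.75 and 12.73 in CTL, 12.69, 12.50 and 12.52 in KD3, and 12.62, 12.67 and 12.62 in KD4. The groups overlapped, and the differences were -0.12 in KD3 (SE 0.08, limma adjusted p = 0.365) and -0.05 in KD4 (SE 0.08, adjusted p = 0.676). FRG1 has many pseudogene copies, and its probe may share signal with them.

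SLC25A4, the adenine nucleotide translocator of heart and muscle mitochondria, read 12.89, 12.92 and 12.78 in CTL, 12.79, 12.73 and 12.81 in KD3, and 12.72, 12.75 and 12.79 in KD4. It differed by -0.08 in KD3 and -0.10 in KD4 (SE 0.07, limma adjusted p = 0.434 and 0.28). FAT1, an atypical cadherin, read 11.32, 11.03 and 11.25 in CTL, 10.93, 11.13 and 11.16 in KD3, and 11.05, 11.02 and 11.19 in KD4. It differed by -0.12 and -0.11 (SE 0.10, adjusted p = 0.451 in each, from limma). For each of these 3 genes the groups overlapped. A p that misses the threshold does not show that the levels are equal.

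Along 4q35, 40 genes were listed, 37 of them with a probe and 30 of those tested. In KD3, 2 rose and 2 fell at an adjusted p of 0.05, beside 10.5% and 11.4% of all tested genes. In KD4, 3 rose and 9 fell, beside 14.9% and 16.1%. With the 1.8-fold threshold, TLR3 and TRIML2 were called as lower in both knock-downs, beside 2.40% of all genes in KD3 and 3.49% in KD4, and FRG2 as higher in KD4, beside 1.55%. The median difference of the 30 genes was -0.06 in KD3 and -0.12 in KD4, beside 0.01 and 0.04 over all tested genes. The knock-downs share the CTL arrays, so that their agreement is not independent.

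**Figure D4:**
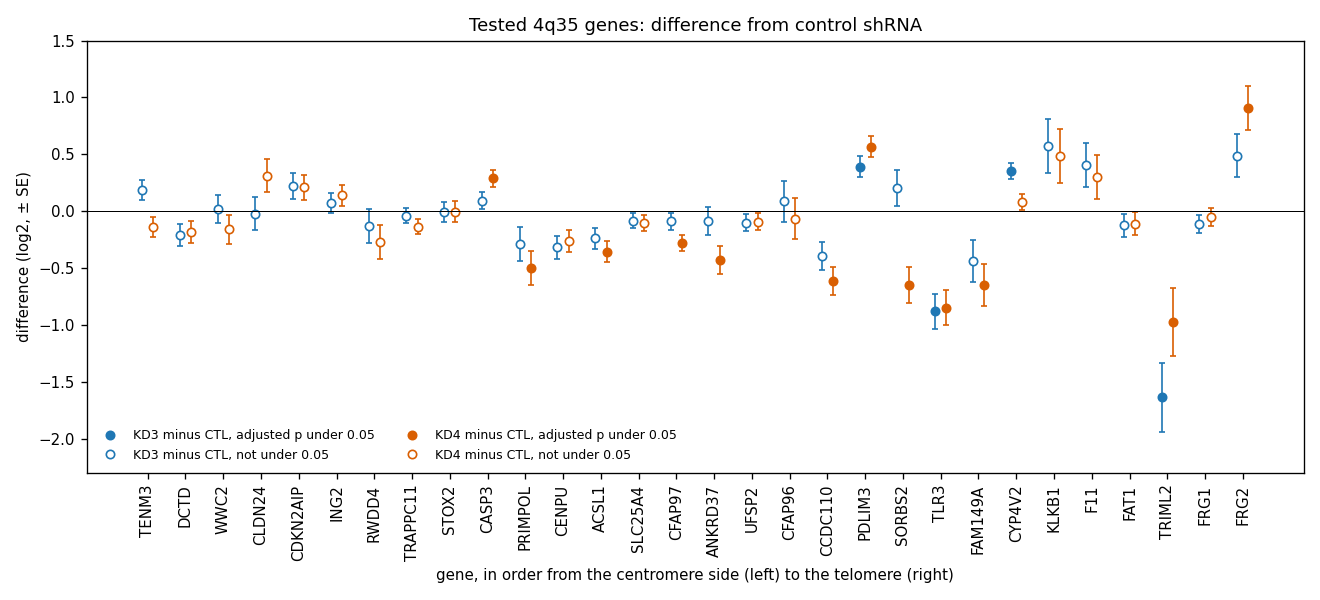
Difference from CTL on the log2 scale (vertical axis, ± SE from limma) for the brightest probe of each of the 30 tested 4q35 genes, ordered from the centromeric side to the telomere (horizontal axis, order only). Filled points have an adjusted p under 0.05. TLR3 and TRIML2 lie lowest, and FRG2, the last gene, is highest in KD4.

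TRIML2, a tripartite motif family gene between FAT1 and FRG1 in this order, had the largest difference of the region. It read 5.63, 5.86 and 6.00 in CTL, 4.20, 3.95 and 4.43 in KD3, and 5.58, 4.22 and 4.76 in KD4. Both knock-downs lay below CTL on every array, though KD4 replicate 1 came close. The difference was -1.64 in KD3 (3.11-fold, SE 0.30, limma adjusted p = 0.00629) and -0.97 in KD4 (1.97-fold, SE 0.30, adjusted p = 0.041). The KD4 call was kept in 1 of 9 fits with an array left out, where the difference ran from -1.34 to -0.66 and the adjusted p reached 0.118. It was -1.44 within slide 1 and -0.05 within slide 2, which held KD4 replicate 1 and CTL replicate 1. The fitted value in KD3 was called in all 9 such fits. With normexp the differences were -0.60 in KD3 and -0.36 in KD4 (limma adjusted p = 0.000626 and 0.0127), and the KD4 adjusted p was 0.0749 with no filter and 0.0724 with 2 groups alone.

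TLR3, a receptor for double-stranded RNA, read 5.56, 5.93 and 5.79 in CTL, 5.08, 4.59 and 4.97 in KD3, and 4.71, 5.06 and 4.95 in KD4. All 6 knock-down arrays lay below the CTL arrays. The difference was -0.88 in KD3 (1.84-fold, limma adjusted p = 0.0051) and -0.85 in KD4 (1.8-fold, adjusted p = 0.00444), both near the fold threshold. Leaving out 1 array moved it to -0.74 without KD3 replicate 2 and -0.79 without CTL replicate 2 in KD3, and to -0.75, -0.76 and -0.83 without KD4 replicate 1, CTL replicate 2 and CTL replicate 3 in KD4. The adjusted p stayed under 0.05 in all these fits, with a highest value of 0.0213 in KD3 and 0.0181 in KD4 (limma). With normexp the differences were -0.35 and -0.32 (limma adjusted p = 0.00544 and 0.00758), and with 75th percentile scaling the KD4 difference was -0.73 (0.0141).

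FAM149A, of unknown function, was lower by a log2 difference of -0.65 in KD4 (limma adjusted p = 0.0295) and -0.44 in KD3 (adjusted p = 0.133). The KD4 value missed the threshold without KD4 replicate 1 or 2 or CTL replicate 3 (limma adjusted p from 0.0602 to 0.0901). KLKB1, the plasma prekallikrein gene, differed by 0.58 and 0.48 with overlapping groups (limma adjusted p = 0.128 and 0.166). PDLIM3, an actinin-binding protein of the Z-disc, is named after its values were seen because both of its probes passed in both knock-downs. They were higher by 0.39 and 0.54 in KD3 and by 0.57 and 0.83 in KD4 (adjusted p from 0.000867 to 0.0192, limma), and the knock-down and CTL arrays did not overlap. The first probe missed the threshold in KD3 without KD3 replicate 1 or 3 or CTL replicate 1 (limma adjusted p from 0.0505 to 0.0582).

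Of the DUX4 targets among the members, TRIM43 was detected on all arrays with 2 probes. The first read 3.47, 4.36 and 3.75 in CTL, 4.92, 4.09 and 4.08 in KD3, and 5.00, 4.23 and 4.31 in KD4, with overlapping groups. The differences were 0.50 in KD3 (SE 0.31, limma adjusted p = 0.313) and 0.65 in KD4 (SE 0.31, adjusted p = 0.156). The replicate 1 arrays of both knock-downs were the highest, and within slides the KD4 difference was 0.21 on slide 1 and 1.53 on slide 2. Slide 2 held KD4 replicate 1 and CTL replicate 1 as the only arrays of these groups. The second probe differed by 0.39 in KD3 and 0.18 in KD4 (limma adjusted p = 0.414 and 0.678), again with overlap. Some of these signals lay close to the lowest that any probe was detected at. That was 3.10 on CTL replicate 1 and 3.35 on CTL replicate 3, beside 3.47 and 3.75 for the first probe. On KD4 replicate 3 it was 3.54, beside 3.77 for the second.

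TRIM49 read 4.95, 4.84 and 4.44 in CTL, 4.94, 4.89 and 4.80 in KD3, and 5.11, 4.97 and 4.95 in KD4. KD4 lay just above all CTL arrays, and KD3 overlapped CTL. The differences were 0.13 and 0.26 (SE 0.13, limma adjusted p = 0.521 and 0.155). TRIM43 and TRIM49 belong to families of near-identical copies, so that their probes may read other members of these families.

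The wider list of DUX4 targets held 36 genes, 28 of them with a probe. A probe of 13 was detected on all 9 arrays, 10 were detected on none, and 16 were tested. In KD3, 3 passed an adjusted p of 0.05, all as higher, beside 10.5% of all tested genes, and 0 were called with the fold, while 5 had an unadjusted p under 0.05 (limma). In KD4, 3 passed as higher and 1 as lower, beside 14.9% and 16.1% of all genes, and 2 were called, both as higher, beside 1.55%. One of the 2, TRIM53AP, entered the test only through KD4, where it is high, so that its call supports nothing and PRAMEF12 is the other. TRIM53AP is also 1 of the 3 that passed as higher in KD4. The 1 that passed as lower, TRIM51, entered only through KD3 and CTL, where it is high, so that its pass supports nothing either. RFPL3, like TRIM51, entered through KD3 and CTL, with detection on 1 of 3 KD4 arrays. The median difference of the 16 genes, with TRIM53AP, TRIM51 and RFPL3 among them, was 0.21 in KD3 and 0.22 in KD4, beside 0.01 and 0.04 over all tested genes. A median without TRIM53AP, TRIM51 and RFPL3 was not computed.

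**Figure D5:**
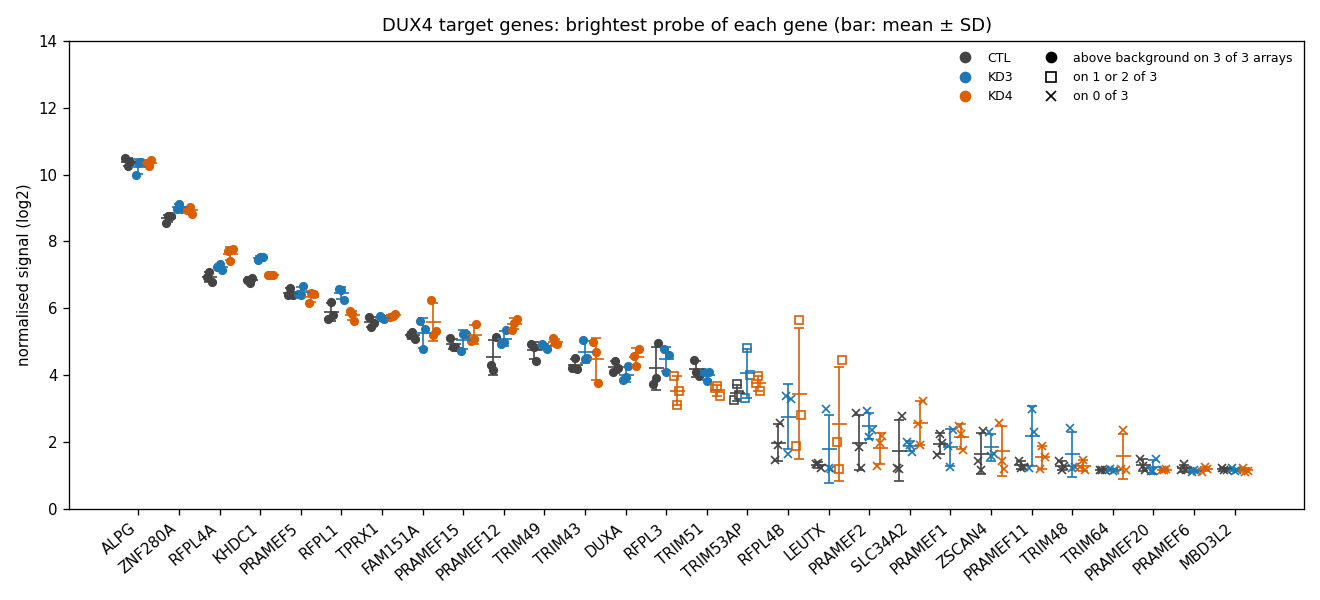
Normalised log2 signal (vertical axis) of the brightest probe of each of the 28 DUX4 target genes with a probe (horizontal axis, ordered by the number of arrays detected and then by signal) on the 9 arrays by group, with the mean ± SD of 3 arrays. Crosses mark groups detected on 0 of 3 arrays. Genes detected on every array stand on the left, and genes detected on no array, MBD3L2 and ZSCAN4 among them, on the right.

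PRAMEF12, of the PRAME family of leucine-rich repeat genes, was called in KD4. It read 4.30, 4.15 and 5.15 in CTL, 4.94, 5.01 and 5.35 in KD3, and 5.36, 5.56 and 5.69 in KD4. Every KD4 array lay above CTL, and KD3 overlapped it. The difference was 1.00 in KD4 (2.00-fold, SE 0.24, limma adjusted p = 0.0161) and 0.56 in KD3 (adjusted p = 0.145). Without KD4 replicate 3 or CTL replicate 1 the KD4 adjusted p was 0.0561 and 0.051, and without CTL replicate 2 the difference was 0.81, below 1.8-fold. With normexp it was 0.33 (limma adjusted p = 0.01).

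TRIM53AP, a pseudogene of the TRIM family, had 3 probes. The tested one was detected on 3 KD4 arrays, 1 KD3 array and no CTL array, and was at least 1.54-fold higher in KD4 than the CTL floor (limma adjusted p = 0.0279). It was admitted to the test by the group where it is high, and the call was lost with normexp (0.04, limma adjusted p = 0.676), with no filter (0.0537) and without KD4 replicate 1 or 3 or CTL replicate 3 (0.0764, 0.0825 and 0.0588). The other probes of this gene were not tested. One was detected on 2 CTL arrays alone, with a mean of 3.55 in CTL, 2.48 in KD3 and 2.72 in KD4, and one on 4 of 9 arrays, with means of 3.47, 4.06 and 3.76.

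RFPL4A, a ret finger protein-like gene, was higher in KD4 on both probes, by 0.65 and 0.70 (limma adjusted p = 0.0159 and 0.00285), and differed by 0.36 and 0.29 in KD3 (adjusted p = 0.15 and 0.114). Without CTL replicate 3 the first probe missed the threshold (limma adjusted p = 0.0541).

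KHDC1, a KH domain gene, was higher in KD3. It read 6.86, 6.76 and 6.92 in CTL, 7.45, 7.54 and 7.54 in KD3, and 7.01, 6.99 and 6.98 in KD4. The groups did not overlap. The difference was 0.66 in KD3 (SE 0.07, limma adjusted p = 0.000346) and 0.15 in KD4 (adjusted p = 0.136), and KD4 differed from KD3 by -0.52 (adjusted p = 0.00911). TRIM51 was lower in KD4 by a difference of -0.63 (limma adjusted p = 0.0108), with detection on 1 of 3 KD4 arrays and on all others, and differed by -0.17 in KD3 (adjusted p = 0.445). Its probe was admitted to the test by KD3 and CTL, the groups where it is high, and so lends no support to a fall in KD4. With normexp background correction the KD4 difference was -0.15 (limma adjusted p = 0.122).

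The promoters were searched for the core that the DUX4 homeodomains are known to bind, the letters TAA, any 3 bases and then AATCA, on both strands of the 300 bases around each RefSeq start (GRCh38.p14). It was found in 312 of 35116 promoters, or 0.888%. Of 34 promoters of the DUX4 target list 7 held it, or 20.6%, and 7 genes of the list had no entry. The 7 were those of MBD3L2, MBD3L3, MBD3L5, TRIM48, TRIM51, LEUTX and RFPL4A. Related genes of the MBD3L and TRIM families are thus counted separately, and the matches are not independent. Among the members, it was found for MBD3L2 and for 1 of the 8 SORBS2 promoters, and not for FRG2, FRG1, FAT1, SLC25A4, ZSCAN4, KHDC1L or TRIM49. TRIM43 had no entry. A match is a description of letters, not of binding. TRIM51, which read lower in KD4 on a probe admitted by the groups where it is high, also held a match. PRAMEF12, called as higher in KD4, held none. Whether a match goes with a difference was not tested. The 250 bases before the starts of MBD3L2 (chr19:7049071-7049320, plus strand), which was not detected, and RFPL4A (chr19:55758847-55759096, plus strand), higher in KD4, are shown with the match in capitals. In both the match is on the opposite strand, ending 56 and 58 bases before the start.
MBD3L2: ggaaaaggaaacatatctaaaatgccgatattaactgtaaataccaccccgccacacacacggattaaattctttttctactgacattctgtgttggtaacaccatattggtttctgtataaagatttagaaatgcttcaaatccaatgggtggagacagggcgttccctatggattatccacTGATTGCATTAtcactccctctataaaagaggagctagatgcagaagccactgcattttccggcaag
RFPL4A: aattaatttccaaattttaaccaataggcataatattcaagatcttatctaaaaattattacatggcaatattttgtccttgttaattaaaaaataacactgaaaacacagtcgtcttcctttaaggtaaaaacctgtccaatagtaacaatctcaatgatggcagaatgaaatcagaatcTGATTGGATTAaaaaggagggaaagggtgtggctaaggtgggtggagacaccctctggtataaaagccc

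A list of 14 genes whose products act on D4Z4 chromatin or with SMCHD1 was detected in full. Besides SMCHD1, no gene of it was called with the fold. In KD3, 1 of the 14 rose and 3 fell at an adjusted p of 0.05 (limma), SMCHD1 among them. Over all tested genes 10.5% rose and 11.4% fell. In KD4, 5 rose and 3 fell, beside 14.9% and 16.1%, with KMT5B counted in both directions. LRIF1, a partner of SMCHD1 at the repeat, read 8.68, 8.49 and 8.77 in CTL, 8.92, 8.73 and 8.75 in KD3, and 9.55, 9.32 and 9.37 in KD4. KD4 lay above all other arrays. LRIF1 was higher by 0.77 in KD4 (1.70-fold, SE 0.10, limma adjusted p = 0.000921), with 0.15 in KD3 (adjusted p = 0.334), and KD4 exceeded KD3 by 0.61 (adjusted p = 0.0208). CBX3, named after its values were seen, had 2 probes. The dimmer was higher in KD4 by 0.83 (1.78-fold, limma adjusted p = 0.0207), and the brighter by 0.26 (adjusted p = 0.0964). On the dimmer probe CTL replicate 3 read 8.54, beside 9.43 and 9.40 on the other CTL arrays. KMT5B, a histone methyltransferase also named after its values were seen, had 3 probes that did not move alike. The dimmest read 5.71, 5.49 and 5.47 in CTL, 6.07, 5.81 and 5.78 in KD3, and 5.15, 5.13 and 5.00 in KD4, with no overlap. It was lower in KD4 than in CTL by a difference of -0.46 (limma adjusted p = 0.0113) and than in KD3 by -0.79 (adjusted p = 0.00911), with 0.33 in KD3 (adjusted p = 0.0567). The brightest was higher in KD4 by 0.32 (limma adjusted p = 0.0416), a pass lost without KD3 replicate 2, KD4 replicate 1 or 2 or any 1 CTL array (from 0.0597 to 0.129), and the other differed by 0.30 (0.0631). DNMT3B, the de novo DNA methyltransferase that methylates the repeat, was lower in KD3 by a difference of -0.35 (limma adjusted p = 0.0206), with -0.17 in KD4 (adjusted p = 0.168). HMGB2 was lower in both, by -0.32 and -0.28 (limma adjusted p = 0.0129 and 0.0164), and the polycomb subunit SUZ12 was higher in both, by 0.29 and 0.24 (adjusted p = 0.0197 and 0.0309). Some of these differences depended on single arrays. DNMT3B missed the threshold without KD3 replicate 2 or 3 (limma adjusted p = 0.0738 and 0.0523), and HMGB2 in KD4 without KD4 replicate 1 or 3 (0.0517 and 0.0533), while HMGB2 in KD3 kept it in all 9 fits. SUZ12 missed it in KD3 without KD3 replicate 1 or 2 (limma adjusted p = 0.0522 and 0.0566), and in KD4 without any 1 array of KD4 or CTL or without KD3 replicate 2 (from 0.0503 to 0.0967).

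In skeletal muscle markers, ACTA1 was higher by 0.71 in KD3 and 0.65 in KD4 and MYH3 by 0.49 and 0.60, while MYOD1 was lower by a difference of -0.44 in KD3 (adjusted p from 0.000349 to 0.0373, limma). MYOG, DES and CKM did not pass, and MYH8 was detected on 0 of 9 arrays. These arrays read RNA of whole cultures, so that a change in the number of cells with a transcript and a change in RNA per cell cannot be told apart.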

How the data were processed

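The authors deposited, for each array, spot intensities from Agilent Feature Extraction 10.10.1.1. Its green processed signal is background-subtracted and detrended, and a spot not above background holds a surrogate value. A table of log2 values that the authors deposited, quantile normalized in GeneSpring, served as an alternative. The array design names GRCh37, while gene names and promoters came from RefSeq GRCh38.p14.

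Control and outlier spots (260 to 634 of 58717 per array) were left out here. Signals were put on the log2 scale and quantile normalized (limma 3.58.1, R 4.3.3), and the spots of each probe averaged (21 of 42405 probes dropped). A probe was detected on an array when most of its spots were well above background. Those detected throughout at least 1 group entered the test (32090 probes, 26701 genes, a nameless probe counting by its accession), in 1 limma fit of all 9 arrays with Benjamini-Hochberg adjustment over all probes. A gene was called when any probe had an adjusted p under 0.05 and a fold of at least 1.8. Between 74.6% and 79.2% of probes were detected on an array, replicates correlated at 0.995 or more, and the number of arrays limits precision. The fit was tested on simulated data.

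The members and lists were chosen with earlier results of these data known. Named were all members, SMCHD1, the FRG2 relatives, the called genes of each list and the 3 probes most like a called member. Further genes, up to 5 per list, were named by the largest mean difference of their brightest probe. PDLIM3, KMT5B and CBX3 were added later. Where no array of a group detected a probe, its fold was taken against each array's lowest detected signal, or the probe's own where higher. The replicate numbers did not pair the samples (correlations of deviations from -0.0772 to 0.145). Alternatives were 75th percentile scaling, normexp with an offset of 50 on median signals, the authors' values, no or a stricter filter, the methods' t-test (plain or adjusted), 2 groups alone, replicate or slide blocks, no fold threshold, outlier spots kept, each array left out and, added after seeing the data, differences within each slide. One marker of the lists for other cell types is not reported here.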

Additional observations from a re-analysis of the deposited data

Results flagged for a closer look

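The following genes differed between the knock-downs by the direct test of KD4 against KD3 (limma, adjusted p under 0.05), so that their differences from the shared CTL arrays were unequal. SORBS2 was lower in KD4 on its first probe, by -0.85 on the log2 scale. KHDC1 was lower in KD4 by -0.52, and SMCHD1 by -0.51 and -0.56 on 2 of its 3 probes. LRIF1 was higher in KD4 by 0.61 and FRG2C by 0.68 on its first probe. KMT5B was lower in KD4 by -0.79 on its dimmest probe, and the other 2 probes did not pass. Without KD3 replicate 2 or 3 or any 1 KD4 array, the direct difference missed the threshold for LRIF1 (limma adjusted p from 0.055 to 0.0808) and for FRG2C (from 0.0594 to 0.1). The brightest SMCHD1 probe missed it without KD3 replicate 1 or 3 or any 1 KD4 array (from 0.0561 to 0.0688), and KHDC1 with 75th percentile scaling (0.0526). The hairpin and the level of SMCHD1 change together between KD3 and KD4 and cannot be told apart.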

How the results depend on the processing

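The call of SMCHD1 held in both knock-downs under all alternatives run, with a difference from -1.02 to -0.90 in KD3 and from -1.56 to -1.48 in KD4 on the log2 scale when an array was left out. FRG2 kept an adjusted p under 0.05 (limma) in KD4 in all 9 of those fits, and 0 or 1 member was then called in KD4 and between the knock-downs, and 0 in KD3. The count of members called in KD4 was 0 with normexp background correction, where FRG2 differed by 0.48 (limma adjusted p = 0.00333), 0 with the methods' t-test once adjusted by Benjamini-Hochberg (FRG2 adjusted p = 0.151), and 2 with no fold threshold. Between the knock-downs it was 0 with 75th percentile scaling, normexp, no filter, the adjusted t-test of the methods, 2 groups alone and the slide block. For the 4q35 list, the 2 calls in KD3 became 0 with normexp or the adjusted t-test and 4 with no fold threshold, and the 3 in KD4 became 0, 0 and 12. They ran from 1 to 2 and from 0 to 3 when an array was left out. For the DUX4 targets, the 0 calls in KD3 became 3 with no fold threshold, and the 2 in KD4 became 0 with normexp and with the t-test in either form, 1 with no filter or the stricter filter, and 4 with no fold threshold. They ran from 0 to 1 and from 0 to 2 when an array was left out. For the 14 D4Z4 chromatin genes, the 1 call, that of SMCHD1, became 4 in KD3 and 7 in KD4 with no fold threshold. Over all tested genes that setting passed 10.5% as higher and 11.4% as lower in KD3, and 14.9% and 16.1% in KD4. The D4Z4 chromatin calls were 1 in KD3 and 1 to 2 in KD4 when an array was left out. The cause of these changes was not tested. The offset of 50 in normexp by itself shrinks the folds of probes with low signal. Normexp called 360, 461 and 35 of all genes as differing in the KD3, KD4 and direct comparisons, beside 973, 1345 and 134. The adjusted t-test called 250, 542 and 0, the stricter filter 88 between the knock-downs, and no fold threshold 5841, 8217 and 757. With the replicate block 1 member was called in KD4 and 1 between the knock-downs, and the paired fit changed no count of calls for the lists, while DNMT3B in KD3, SUZ12 and the brightest KMT5B probe in KD4 and SMCHD1 between the knock-downs then had limma adjusted p = 0.0525, 0.0591, 0.0551 and 0.0684. Of 35 single-probe differences that passed the adjusted p, 32 missed it with the adjusted t-test, 8 with 2 groups alone, 7 with no filter, 5 with normexp and 3 to 10 when an array was left out. Probes not well above background, ZSCAN4 and MBD3L2 among them, gave no fold.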
